A study of Mus musculus with 6 samples.

Results

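The transcripts of 10 regulators of epithelial state were compared between E14.5 mouse intestines with and without Klf5. They were chosen by symbol: Esrp1, Esrp2, Grhl1, Grhl2, Grhl3, Ovol1 and Ovol2, which hold cells in an epithelial state, and Zeb1, Zeb2 and Snai2, which drive the epithelial-to-mesenchymal transition (EMT). All 10 were measured, each by 1 probe set, among 19938 genes on the array. The Klf5-deleted group (genotype Klf5D/D) and the control group (Klf5wt/wt carrying ShhEGFP/Cre) held 3 arrays each. Every array was hybridised with RNA from a pool of 2 intestines, cut about 1.5 cm anterior to the cecum in embryos of mixed, part C57Bl/6, strain. The control label names a Cre recombinase in the Shh gene, and Shh is made by gut epithelium; the label of the Klf5-deleted group names no Cre. The tissue was whole intestine, so the RNA came from epithelium together with mesenchyme, muscle, nerve, vessel and serosa.

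As background, ESRP proteins are splicing factors that select the epithelial exons of receptors and junction proteins. Grainyhead-like (GRHL) factors turn on junction genes such as Cdh1 and Cldn4, and OVOL zinc-finger proteins repress Zeb and other EMT genes. ZEB and Snail proteins bind E-boxes and repress Cdh1, Esrp and polarity genes, and microRNAs of the miR-200 family in turn repress Zeb1 and Zeb2, so that both sides hold each other down. KLF5 is a zinc-finger factor of the gut epithelium and of other epithelia.

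Signals are log2 values normalised by the authors with robust multi-array averaging (RMA), and changes are Klf5-deleted minus control. Klf5 itself read 10.24, 10.49 and 10.34 in its deleted group, against 11.55, 11.74 and 11.77 in control gut, and fell to 39.8% of the control level (adjusted p = 9.62e-05, limma). Where its probes lie relative to the deleted part of the gene was not analysed here. Over all genes, 1711 were called lower (8.58% of those tested) and 1785 higher (8.95%) at an adjusted p of 0.05. At an unadjusted p under 0.05 in limma's test, 2668 of the 19938 genes were lower and 3431 higher. With each array centred on its own median, 1767 were lower and 1216 higher. The pools also differed in sex. The male share, computed from Y-linked signals and set to average 100% in the Klf5-deleted arrays, was 95.1% to 103% there and 0%, 46.6% and 41.5% in control replicates 1 to 3.

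Of the 7 Esrp, Grhl and Ovol genes, 5 fell in the Klf5-deleted intestine and 0 rose in limma's test, with 1 (Grhl1) higher at an unadjusted p under 0.05. The 5 were Esrp1, Esrp2, Grhl2, Grhl3 and Ovol1, and they fell to between 29.7% (Ovol1) and 62.2% (Grhl2) of the control level. Of the 3 EMT genes Zeb1 rose, to 122% of the control level, while Zeb2 and Snai2 did not pass the test. The 5 lower calls among 7 genes stand beside 8.58% called lower over all genes, and the 1 higher call among 3 beside 8.95% called higher. The groups did not overlap for 6 of the 7 epithelial regulators and for 1 of the 3 EMT genes, against 36.0% of all genes. In whole tissue, fewer epithelial cells and less RNA per epithelial cell cannot be told apart.

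**Figure D1:**
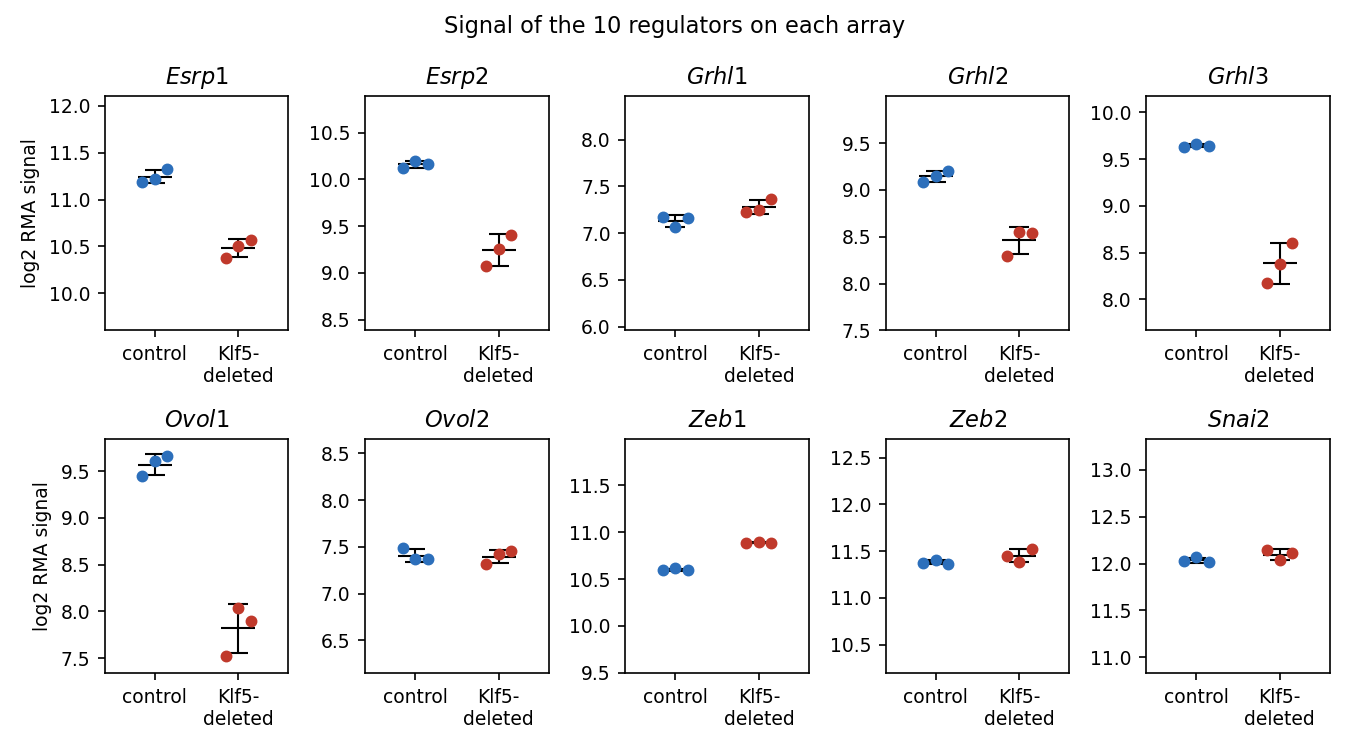
Log2 RMA signal (y) of the 10 regulators in control (blue) and Klf5-deleted (red) arrays, with the mean and SD as bars and a window of 2.5 log2 units in every panel. The groups stand apart for Esrp1, Esrp2, Grhl2, Grhl3, Ovol1, by 0.27 for Zeb1 and by 0.053 for Grhl1, and overlap for Ovol2, Zeb2 and Snai2.

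Both splicing regulators fell. Esrp1, the more studied of the pair, read 10.38, 10.50 and 10.57 on Klf5 deletion, against 11.18, 11.22 and 11.32 in control gut. Its highest Klf5-deleted array lay 0.61 below its lowest control, and the change was −0.76 (SE 0.06, adjusted p = 0.000343, limma), a 1.69-fold fall. Esrp2, its paralog with overlapping targets, read 9.07, 9.26 and 9.41 against 10.13, 10.20 and 10.16. This was a 1.89-fold fall (−0.92, SE 0.08, adjusted p = 0.000462, limma), again with no overlap. The 2 changes differed by 0.16, with overlapping per-array differences (exact two-sided permutation test, p = 0.2, adjusted p = 0.2 over 6 paralog pairs).

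Of the 3 Grainyhead-like genes, Grhl2 and Grhl3 fell. Grhl3, best known from skin barrier and neural tube closure, read 8.18, 8.37 and 8.60 on Klf5 deletion, against 9.63, 9.66 and 9.64 in control gut. It fell 2.39-fold (−1.26, SE 0.10, adjusted p = 0.000247, limma), and its controls lay within 0.029 of each other while the Klf5-deleted arrays spread over 0.43. Grhl2, which maintains Cdh1 and claudin expression in simple epithelia, read 8.29, 8.55 and 8.54 against 9.08, 9.15 and 9.21. It fell 1.61-fold (−0.68, SE 0.08, adjusted p = 0.00131, limma), and no array of one group reached the other. Grhl1, a regulator of desmosomal cadherin genes in skin, read 7.23, 7.25 and 7.36 against 7.17, 7.06 and 7.17. The Klf5-deleted arrays were all above the controls, by a gap of 0.053, and the change did not pass the test (0.14, 95% interval 0.01 to 0.28, adjusted p = 0.132, limma). Its signal stood at the 30.3rd percentile of all genes, where the array can understate changes.

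Between paralogs, the change of Grhl1 was 1.40 above that of Grhl3 and 0.83 above that of Grhl2, and Grhl2 stood 0.57 above Grhl3. In each of these pairs the per-array differences did not overlap between groups. With the exact two-sided permutation test each pair had p = 0.1, the smallest that 3 arrays against 3 allow, and an adjusted p of 0.12 over the 6 pairs.

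Promoter sequence from RefSeq was at hand for 4 of the 10 regulators (Grhl1, Grhl3, Ovol2 and Zeb2). Those of Grhl1 and Grhl3 are shown because these paralogs had changes of 0.14 and −1.26. Each is the 250 bases before the first transcription start listed, 5′ to 3′ on the gene's strand, assembly GRCm38.p6: Grhl1 at chr12:24572037-24572286 (plus strand) and Grhl3 at chr4:135573633-135573882 (minus strand). Capitals mark, on either strand, CACCC and CCGCCC, boxes of the kind that Krüppel-like factors can bind, CACCTG, the E-box of ZEB and Snail proteins, and AACNNGTT, a pattern bound by Grainyhead factors.
Grhl1: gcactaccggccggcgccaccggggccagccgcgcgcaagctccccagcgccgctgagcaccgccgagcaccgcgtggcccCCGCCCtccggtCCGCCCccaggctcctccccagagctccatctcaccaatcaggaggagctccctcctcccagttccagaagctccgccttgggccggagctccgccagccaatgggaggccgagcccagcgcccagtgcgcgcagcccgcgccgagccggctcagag
Grhl3: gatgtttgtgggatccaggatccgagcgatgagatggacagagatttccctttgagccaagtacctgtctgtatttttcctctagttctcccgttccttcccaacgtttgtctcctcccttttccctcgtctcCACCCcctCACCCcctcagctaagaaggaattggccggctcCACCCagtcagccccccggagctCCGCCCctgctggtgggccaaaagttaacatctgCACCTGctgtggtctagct
The Grhl3 window held 3 CACCC, 1 CCGCCC and 1 CACCTG match, and the Grhl1 window 2 CCGCCC matches with 0 of the other motifs. Over 27025 promoter windows of this length, CACCC was present in 51.3%, CCGCCC in 32.9%, CACCTG in 17.1% and AACNNGTT in 3.63%. Ovol2 held 2 CACCC matches and Zeb2 held 1, and neither held CACCTG or CCGCCC. A match is a run of letters and does not show binding.

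Of the Ovol pair, Ovol1 fell. Ovol1, a zinc-finger repressor downstream of Wnt signalling in epithelia, read 7.52, 8.03 and 7.90 on Klf5 deletion, against 9.45, 9.60 and 9.66 in control gut. Its fall was the largest of the 10 genes, 3.37-fold (−1.75, SE 0.13, adjusted p = 0.000183, limma), with a gap of 1.42 between the groups. Ovol2, a repressor of Zeb genes in other epithelia, read 7.31, 7.42 and 7.45 against 7.49, 7.37 and 7.37. The groups overlapped and the difference was −0.0098 (95% interval −0.15 to 0.13, adjusted p = 0.939, limma). The changes of Ovol1 and Ovol2 differed by −1.74, without overlap (exact permutation test, p = 0.1, adjusted p = 0.12). The Ovol2 signal stood at the 33.2nd percentile of all genes. Control replicate 1, whose pool had the lowest Y-linked signal, read 5.38, 6.62 and 4.93 for the Y-linked genes Eif2s3y, Kdm5d and Uty. Ovol2 and Grhl1 lay above those values on every array. The Y-linked readings spread from 4.93 to 6.62, so they set no common floor for other probe sets. Whether Ovol2 and Grhl1 were near background was not tested.

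Among the EMT genes Zeb1 had the tightest values of the 10. It read 10.89, 10.90 and 10.89 on Klf5 deletion, against 10.59, 10.61 and 10.60 in control gut, a rise of 1.22-fold (0.29, SE 0.04, adjusted p = 0.00311, limma). Zeb2, which also acts in the neural crest cells that form the enteric nervous system, read 11.45, 11.38 and 11.53 against 11.38, 11.41 and 11.37. The groups overlapped, and the difference was 0.07 (95% interval −0.05 to 0.19, adjusted p = 0.43, limma). Snai2, also called Slug, read 12.14, 12.03 and 12.11 against 12.02, 12.06 and 12.01. Its groups overlapped as well (0.06, 95% interval −0.05 to 0.17, adjusted p = 0.453, limma). The change of Zeb1 was 0.22 above that of Zeb2, with no overlap of the per-array differences (exact permutation test, p = 0.1, adjusted p = 0.12).

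Markers of the cell types around the epithelium were set beside the Zeb1 rise. Of 8 fibroblast markers 3 rose (Foxf1, 0.25; Pdgfra, 0.26; Foxf2, 0.21) and 0 fell in limma's test, also 0 at an unadjusted p under 0.05, with a median of 0.16. Their summed linear signal ran from 36902 to 39326 on Klf5 deletion, against 33164 to 34780 in control gut. The Foxf2 call was lost without any array but Klf5-deleted replicate 2 (0.17 to 0.24, adjusted p = 0.0645 to 0.113). Of 8 smooth muscle markers 1 rose and 0 fell (1 higher and 2 lower at an unadjusted p under 0.05), with a median of 0.0050. Their summed linear signal overlapped between groups, at 43415 to 46141 on Klf5 deletion against 42748 to 45594. Of 5 mesothelial markers 4 rose and 1 fell, with a median of 0.64. Their sum did not overlap, at 6479 to 8673 against 4162 to 5501. Of 6 neural crest markers 1 rose, Sox10 (0.39, SE 0.07), and 0 fell, with 3 higher and 0 lower at an unadjusted p under 0.05. Their summed linear signal ran from 9533 to 10971 on Klf5 deletion, against 8610 to 9309 in control gut. The marker counts stand beside 8.95% called higher and 8.58% lower over all genes. The part of these cell types in the Zeb1 result was not tested.

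The miR-200 family was measured only through its hairpin precursors, and Mir429 was not analysed here. The mature strands from RefSeq (GRCm38.p6) are shown because Zeb1 and Zeb2 are their best known targets. Those of miR-200b (chr4:156055685-156055706), miR-200a (chr4:156054911-156054932) and miR-429 (chr4:156053916-156053937) lie together on the minus strand. Those of miR-200c (chr6:124718324-124718346) and miR-141 (chr6:124717917-124717938) lie together on the minus strand of another chromosome. Capitals mark the seed, bases 2 to 8.
miR-200b-3p: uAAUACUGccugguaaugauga
miR-200c-3p: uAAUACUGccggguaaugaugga
miR-429-3p: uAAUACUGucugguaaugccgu
miR-200a-3p: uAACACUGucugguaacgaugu
miR-141-3p: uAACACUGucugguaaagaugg
The first 3 share the seed AAUACUG and the other 2 the seed AACACUG. With miR-205, which also represses Zeb genes, 5 precursors were measured. None passed limma's test, and 1, Mir200b, had an unadjusted p under 0.05 (0.29, SE 0.09, adjusted p = 0.0581). Mir200b read 6.05, 5.76 and 6.06 against 5.66, 5.62 and 5.72, within the 4.93 to 6.62 of the Y-linked genes in control replicate 1. Without Klf5-deleted replicate 2 it passed (0.39, adjusted p = 0.00572). Mir200a, at −0.12, and Mir205, at 0.17, did not pass. Over all genes, 8.58% were called lower and 8.95% higher. Precursor signal on this array does not measure the mature microRNA.

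The 2 sides of the circuit were then set side by side as array means. After each gene was centred on its mean over the 6 arrays, the mean of the 7 Esrp, Grhl and Ovol genes was −0.53, −0.33 and −0.26 on Klf5 deletion, against 0.35, 0.37 and 0.40 in control gut. The mean of Zeb1, Zeb2 and Snai2 was 0.08, 0.03 and 0.10 against −0.08, −0.05 and −0.08. The epithelial mean was thus 0.75 lower and the EMT mean 0.14 higher in the Klf5-deleted group, and the difference between the 2 means shifted from 0.44 ± 0.04 to −0.44 ± 0.15 (SD, n = 3 arrays). The control arrays lay close together on both means, and Klf5-deleted replicate 1 had the lowest epithelial mean. No test was made of these means, since the genes were chosen with earlier results in view.

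**Figure D2:**
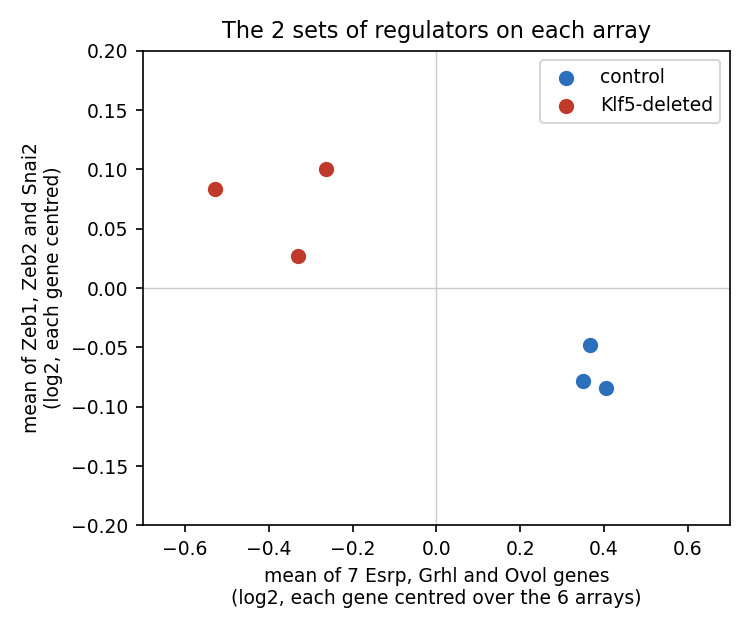
Mean of the 7 Esrp, Grhl and Ovol genes (x) against the mean of Zeb1, Zeb2 and Snai2 (y), both in log2 units with each gene centred over the 6 arrays, 1 point per array. The Klf5-deleted arrays (red) lie from −0.53 to −0.26 on x and the controls (blue) from 0.35 to 0.40; the y axis spans a smaller range.

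Epithelial markers fell over the same arrays. Of 14 such markers, 13 fell and 0 rose in limma's test, also 0 at an unadjusted p under 0.05, with a median of −0.98, a range of −2.16 to 0.15 and a mean of −0.99. Their summed linear signal ran from 23305 to 27417 on Klf5 deletion, against 44382 to 46761 in control gut. Over all genes, 8.58% were called lower and 8.95% higher, and 3431 of 19938 were higher at an unadjusted p under 0.05 in limma's test. The keratin gene Krt19 changed by −1.52, the microvillus gene Vil1 by −1.46 and the sorting adaptor gene Ap1m2 by −0.93. As a check of the labelled tissue, Epcam (−0.61), Krt18 (−0.36) and Cdh1 (−0.94), defining markers of gut epithelium, averaged 11.2, 10.8 and 11.0 on Klf5 deletion and 11.8, 11.2 and 11.9 in control gut.

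Relative to the mean of these 14 markers, a measure chosen after the values were seen, the epithelial regulators lay on both sides of 0. Ovol1 was 0.76 lower and Grhl3 0.27 lower relative to the markers, whereas Grhl2 was 0.30, Esrp1 0.23, Ovol2 0.98 and Grhl1 1.13 higher. For these 6 the per-array values did not overlap between groups. The share of all genes without overlap on this relative scale was not computed. The marker mean itself changed by −0.99 without overlap. A gene that hardly changed, such as Ovol2 (−0.0098), therefore had to come out higher by about as much. Some of the markers are also on the lists of GRHL-linked or ZEB-repressed genes given below. Esrp2 was 0.07 higher relative to the markers, with overlapping arrays. By the exact two-sided permutation test p was 0.1 for each of the 6 and 0.2 for Esrp2, with 0.117 and 0.2 after adjustment over the 7 genes, and 3 arrays against 3 allow no p below 0.1. The part of epithelial content in the falls was not tested.

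**Figure D3:**
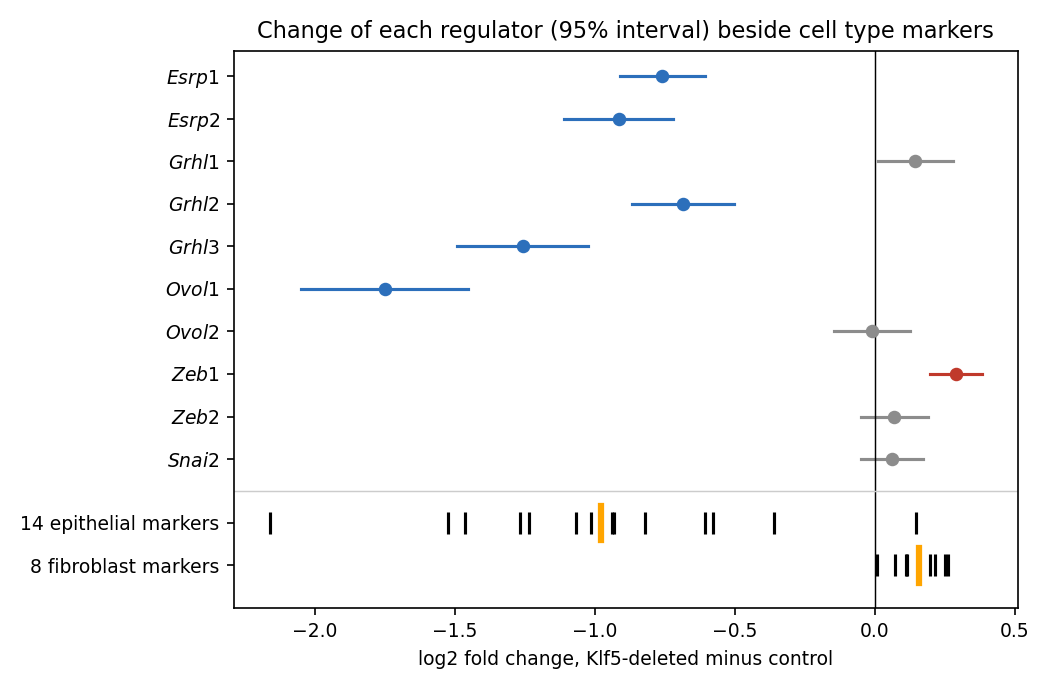
Log2 fold change (x, Klf5-deleted minus control) of the 10 regulators with limma's 95% interval, blue for lower and red for higher at an adjusted p under 0.05 and grey otherwise, above the changes of 14 epithelial and 8 fibroblast markers (ticks, median in orange). Ovol1 and Grhl3 lie to the left of the epithelial median of −0.98, and Zeb1 to the right of the fibroblast median of 0.16.

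The sex of the pools moved with the groups, and its part in the results was not tested. Within the controls, whose male share ran from 0% to 46.6%, the 6 regulators that passed varied by 0.021 (Zeb1) to 0.21 (Ovol1). The gap between the groups was 0.27 (Zeb1) to 1.42 (Ovol1). Without control replicate 1, the pool set to 0%, the same counts passed, 5 lower and 1 higher. No control share exceeded 46.6% and no Klf5-deleted share fell below 95.1%, so these values cannot tell sex and genotype apart. With the male share as a covariate, which enlarged the median SE 2.48-fold, 84 genes passed and 0 of the 10 regulators did. In that fit Ovol1 was at −1.97 (adjusted p = 0.0896), Esrp1 at −0.85 (adjusted p = 0.137), Grhl3 at −1.20 (adjusted p = 0.163), Esrp2 at −0.93 (adjusted p = 0.18), Grhl2 at −0.78 (adjusted p = 0.204) and Zeb1 at 0.27 (adjusted p = 0.335), limma. On the pathway and cell type lists described here, 0 genes passed in that fit except the splicing factor gene Rbm47, while the 14 epithelial markers had a median of −0.96. At an unadjusted p under 0.05 the 5 falls and the Zeb1 rise were counted there. The share of all genes at that cut in this fit was not computed.

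Genes known to depend on these regulators were followed in lists. Of 12 junction and protease genes linked to GRHL factors, all 12 fell, with a median of −0.74 against 0.021 over all genes. The protease inhibitor genes Spint2 and Spint1 changed by −0.85 (SE 0.06) and −1.24 (SE 0.10), and Rab25, a GTPase of apical recycling, by −1.27 (SE 0.11). Of 13 junction and polarity genes reported as repressed by ZEB proteins, 12 fell and 0 rose in limma's test, also 0 at an unadjusted p under 0.05, with a median of −0.93. The polarity gene Llgl2 changed by −0.98 (SE 0.06), the tight junction scaffold gene Tjp3 by −1.18 (SE 0.08) and Ap1m2 by −0.93 (SE 0.07). Pkp3, a desmosomal plakophilin gene (−0.16, adjusted p = 0.236), missed the threshold and was picked out once its values were known. Cdh1, Epcam and Rab25 stand in both lists, and some are epithelial markers as well. The epithelial markers, with which these lists share members, had a median of −0.98. The counts on both lists stand beside 8.58% called lower and 8.95% called higher over all genes.

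The polarity gene Crb3, on the list of ZEB-repressed genes, changed by −0.70 (SE 0.08, adjusted p = 0.00161, limma). Its promoter held the E-box 3 times, and that of Ap1m2, on the same list, held it 4 times. Crb3 is shown as an example, picked out once its values and sequence were known. The window is the 250 bases before its first listed start at chr17:57061951-57062200 (plus strand, GRCm38.p6), with the capitals as above.
Crb3: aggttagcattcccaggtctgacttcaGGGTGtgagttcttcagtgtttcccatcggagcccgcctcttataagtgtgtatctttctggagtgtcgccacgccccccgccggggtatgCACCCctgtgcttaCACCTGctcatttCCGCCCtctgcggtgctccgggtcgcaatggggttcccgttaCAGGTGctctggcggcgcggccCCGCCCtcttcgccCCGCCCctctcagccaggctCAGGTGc
Of the 8 genes on that list with a promoter in the table, 6 held CACCTG on either strand, and of the 8 on the GRHL list 4 did, against 17.1% of all promoter windows. AACNNGTT was found in 2 and 1 of them, against 3.63%. Some genes are on both lists, and these counts describe the letters only. A list chosen for reported ZEB repression is not independent of the E-box that ZEB proteins bind.

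**Figure D4:**
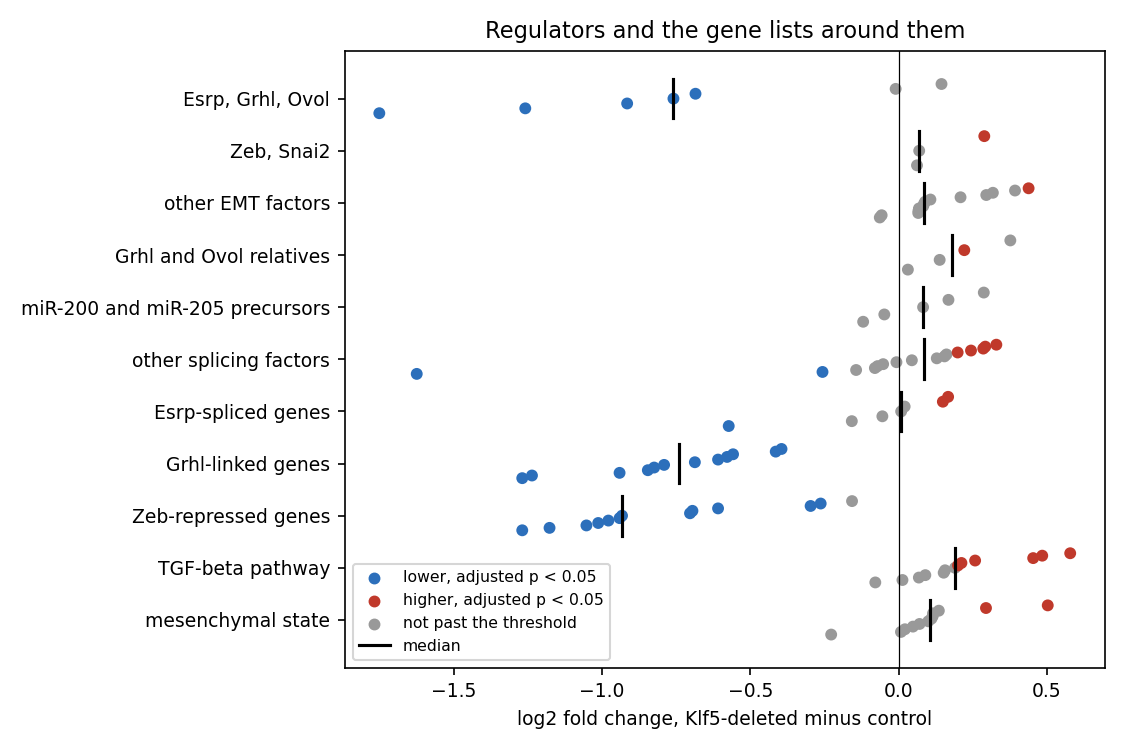
Log2 fold change (x, Klf5-deleted minus control) of each measured gene in the 2 sets of regulators and in the lists built around them, blue for lower and red for higher at an adjusted p under 0.05, grey otherwise, with the list median as a black bar. The GRHL-linked and ZEB-repressed lists lie to the left of 0 with medians of −0.74 and −0.93, and the TGF-beta pathway has a median of 0.19.

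Other splicing regulators were followed as a list of 16. Rbm47, an RNA-binding protein of epithelia, read 8.73, 9.02 and 8.99 on Klf5 deletion, against 10.40, 10.61 and 10.59 in control gut. It fell by 1.63 (SE 0.09, adjusted p = 6.1e-05, limma), and was still called after adjustment for male share (−1.89, adjusted p = 0.035). Rbfox2 and Ptbp2, splicing factors active in mesenchymal and neural cells, each rose by 0.29 (SE 0.05 for both). In all, 2 of 16 splicing factors fell and 5 rose, with a median of 0.09, beside 8.58% called lower and 8.95% higher over all genes. The count that rose was 2 or 3 whichever of the 6 arrays was left out and 2 with median centring, and 1 fell without control replicate 2. Of 7 genes whose exons ESRP proteins select, Cd44 fell by 0.57 (SE 0.09), Fgfr2 (0.15, SE 0.04, adjusted p = 0.0415, limma) and Enah (0.17, SE 0.05, adjusted p = 0.0436) rose, and 4 did not pass. The calls of Fgfr2 and Enah did not hold without any 1 of the 6 arrays (adjusted p = 0.0834 to 0.118 for Fgfr2 and 0.0597 to 0.129 for Enah). These values sum over exons, so which exons were used was not measured.

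Of 14 other EMT transcription factors 1 rose and 0 fell in limma's test, beside 8.95% called higher and 8.58% lower over all genes. At an unadjusted p under 0.05, 5 were higher and 0 lower, beside 3431 higher and 2668 lower of all 19938 genes. The 1 that rose was Twist2, a factor of mesenchymal progenitors (0.44, SE 0.06). Foxc1 (0.32, adjusted p = 0.0721) and Prrx2 (0.21, adjusted p = 0.144) did not pass, and Foxc1 passed without Klf5-deleted replicate 3 (0.40, adjusted p = 0.0484). The list had a median of 0.09. Among 13 genes of the TGF-beta pathway, an inducer of EMT, 6 rose and 0 fell in limma's test, also 0 at an unadjusted p under 0.05. The 6 stand beside 8.95% called higher over all genes. The count that rose was 4 without Klf5-deleted replicate 3 or control replicate 2 or 3. It was also 4 with the replicate number as a block or with median centring. The latent TGF-beta binding protein gene Ltbp1 rose by 0.45 (SE 0.04), the ligand gene Tgfb2 by 0.58 (SE 0.08) and the receptor gene Tgfbr1 by 0.26 (SE 0.04). The list had a median of 0.19. Of 12 genes of the mesenchymal state, Cdh2, or N-cadherin, rose by 0.50 (SE 0.06) and Fn1, or fibronectin, by 0.29 (SE 0.05), while Vim, or vimentin, at 0.14 (adjusted p = 0.0718), and 9 others did not pass. These 2 of 12 stand beside 8.95% called higher over all genes. At an unadjusted p under 0.05, 6 were higher and 1 lower. Without Klf5-deleted replicate 2, 1 gene of this list was called lower.

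Of 4 relatives of the Grhl and Ovol genes 1 rose, Tfcp2 (0.22, SE 0.06, adjusted p = 0.0391, limma), a ubiquitous member of the Grainyhead superfamily. The call of Tfcp2 did not hold without Klf5-deleted replicate 1, 2 or 3 or control replicate 2 or 3 (0.18 to 0.23, adjusted p = 0.0792 to 0.128). Tfcp2l1, an epithelial relative, was at 0.38 (adjusted p = 0.059), and passed without Klf5-deleted replicate 2 (0.49, adjusted p = 0.0209). Ovol3 was at 0.14 (adjusted p = 0.189). The 1 call among 4 stands beside 8.95% called higher over all genes.

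The remaining cell type markers were as follows in limma's test, beside 8.58% called lower and 8.95% higher over all genes. At an unadjusted p under 0.05, 2668 of all 19938 genes were lower and 3431 higher. Of 8 endothelial markers 0 passed (1 higher at an unadjusted p under 0.05). Of 6 leukocyte markers 1 fell and 0 rose (also 0 at an unadjusted p under 0.05), and of 2 red cell markers 0 passed, also at an unadjusted p under 0.05. The summed linear signals of the endothelial, leukocyte and red cell markers each overlapped between groups. For endothelium they ran from 10917 to 13234 on Klf5 deletion, against 11061 to 11720 in control gut. The mesothelial count that rose was 2 without Klf5-deleted replicate 1 or 2 and 1 without control replicate 2 or 3. The leukocyte call was lost without control replicate 1 or 2, a second neural crest marker rose without Klf5-deleted replicate 1 or control replicate 3, and 2 smooth muscle markers fell without Klf5-deleted replicate 3.

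The profiles of other genes were set against the 2 means over the 6 arrays, among 2332 genes whose values spanned at least 0.5. Closest to the mean of the Esrp, Grhl and Ovol genes were B4galnt2, a glycosyltransferase gene (Pearson r = 0.999), Vsig10 (0.999), the tetraspanin gene Tspan8 (0.999), the transferrin receptor gene Tfrc (0.999) and the chloride channel family gene Clic5 (0.999). Closest to the mean of Zeb1, Zeb2 and Snai2 were Slitrk6, a neuronal transmembrane protein gene (0.991), the p53 target Trp53inp1 (0.988), Rfx6, an endocrine transcription factor gene (0.984), Uggt2 (0.983) and Parp8 (0.979). In all, 572 genes reached r of 0.95 with the epithelial mean and 38 with the EMT mean. These correlations describe 6 arrays in 2 groups, and no test was made of them.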

How the data were processed

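The platform was the Affymetrix Mouse Gene 1.0 ST array, 1 array for each of 6 RNA pools. The deposited values are log2 signals that the authors computed by RMA; the submitters' processing notes name Affymetrix Expression Console 1.1. For the genome build, the sources used here give no name. RMA sets the distributions of the arrays alike, so a shift common to most genes is removed, and changes of dim genes are understated. Precision is set by the number of arrays, as there is no read depth.

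Of 35557 rows, 21789 had exactly 1 gene symbol in the platform annotation, 1621 had several and 12147 are unnamed here. Symbols were updated by gene ID to RefSeq (GRCm38.p6) for 21698 rows. The brightest row was kept for the 999 genes with more than 1, which left 19938 genes, with no filter on level. The test was limma 3.58.1 (R 4.3.3) with lmFit and eBayes, Benjamini-Hochberg adjustment over all genes and a threshold of 0.05, and intervals are limma's 95% intervals. The pipeline was tested on simulated data. Paralog differences were tested with the exact permutation test.

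The 10 genes and all lists were chosen with earlier results of these data known. Named are the 10 genes, Klf5, up to 3 genes of a list with the smallest p, and the 5 nearest profiles on each side; other genes are named as examples picked out later, or as tissue checks. Of 153 listed genes 143 were measured, and the other 10 were not analysed here. The labels call the samples pools and do not say whether litters differed, so p values reflect only how these pools vary. The alternatives dropped each array in turn or used the replicate number as a block, median centring, quantile normalization, only the brighter 50% of genes, limma's trend and robust options, the mean of all probe sets, the male share as a covariate and a threshold of 0.1.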

Additional observations from a re-analysis of the deposited data

How the results depend on the processing

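The 5 falls among the Esrp, Grhl and Ovol genes and the rise of Zeb1 passed under every alternative tried except the male share as a covariate. With it 0 and 0 passed in limma's test, and 84 genes passed in all. At an unadjusted p under 0.05, 5 and 1 were counted, with no share over all genes computed beside them. That covariate runs nearly parallel to the groups, and the median SE was 2.48 times as large. Over the other 12 alternatives Esrp1 ranged from −0.80 to −0.71, Esrp2 from −1.0 to −0.83, Grhl2 from −0.73 to −0.60, Grhl3 from −1.37 to −1.15, Ovol1 from −1.86 to −1.60 and Zeb1 from 0.27 to 0.30, with adjusted p at most 0.0291 (Zeb1). Ovol2, not called in any fit, ranged between −0.038 and 0.031 when 1 array was left out and was at 0.20 with the male share, where Ovol3 was at −0.024. Genes called numbered 3496, 2000 to 2757 without 1 array (2000 without control replicate 2) and 2008 with the replicate block. Deviations of same-numbered arrays correlated at −0.145, −0.274 and −0.0315, which gave no sign that the replicate numbers pair the samples. With 3 arrays per group these values cannot exclude a pairing. The block changed no call of the 10 genes, and of the other genes named it ended those of Fn1 (adjusted p = 0.0552), Pdgfra (0.0545), Parp8 (0.0709), Foxf2 (0.118), Tfcp2 (0.0951), Fgfr2 (0.147) and Enah (0.117). With it 1 of 8 fibroblast markers rose, and among 16 splicing factors 2 rose and 1 fell. Centring on the array median also ended those of Enah (0.137), Fgfr2 (0.151) and Tfcp2 (0.0526). Parp8 also lost its call without Klf5-deleted replicate 3 (adjusted p = 0.0638) or control replicate 1 (0.0579) or 3 (0.0674). The shift between the epithelial and EMT means ranged from −0.93 to −0.80. Grhl1 and Ovol2 are left out when the lowest 50% of genes are dropped, so that alternative gave no value for them.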
